A study of Rattus norvegicus with 320 samples.

Results

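The miRNA miR-375 was followed across the rat body. It was found in the count table by its name, with any arm suffix, and 1 of the 616 rows matched, rno-miR-375-3p (miR-375-3p from here on). No row for the other arm, miR-375-5p, was among them. The libraries were small RNA libraries of whole organs from Fischer 344 rats (written Fisher 344 in the labels), an inbred strain. Adrenal gland, brain, heart, kidney, liver, lung, skeletal muscle, spleen, thymus and either testis or uterus were taken at 2, 6, 21 and 104 weeks of age from 32 rats, 4 females and 4 males at each age, which gave 320 libraries in 80 groups of 4. A male brain library of week 6 and a female spleen library of week 104, which the study set aside for clustering with uterus libraries, were left out, and all others were used. No pancreas, pituitary or gut was among the organs analysed here.

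MicroRNAs are short RNAs that lower the output of messenger RNAs by pairing with them, mostly through their seed, bases 2 to 8 from the 5′ end. miR-375 is best known from the endocrine pancreas, where it is abundant in the islets of Langerhans and restrains insulin secretion, and it is also made in neuroendocrine cells of other organs and in several epithelia. Because whole organs were ground, each value is an average over all the cells of the organ and whatever tissue was taken with it, and fewer cells of a type and less RNA per cell cannot be told apart.

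The sequences below show the molecule that was counted, the precursor it is cut from, and the markers of other cell types that the results turn on. The sequences of counted miRNAs were read from the count table and match RefSeq (build GRCr8), from which the other arm and the hairpin were taken, with the seed in capitals in the mature forms and miR-375-3p in capitals in the hairpin.
miR-375-3p: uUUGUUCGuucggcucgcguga
miR-375-5p: gCGACGAGccccucgcacaaacc
Mir375 hairpin: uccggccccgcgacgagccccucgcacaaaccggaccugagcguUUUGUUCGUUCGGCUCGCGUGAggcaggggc
miR-217-5p: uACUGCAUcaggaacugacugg
miR-216a-5p: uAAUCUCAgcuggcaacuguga
miR-34c-5p: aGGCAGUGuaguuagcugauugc
miR-7a-5p: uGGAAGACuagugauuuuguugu
miR-203a-3p: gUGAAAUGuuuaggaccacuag
The 22 bases of miR-375-3p lie at chr9:83906591-83906612 on the minus strand of GRCr8, and fill positions 45 to 66 of the 75-base hairpin at chr9:83906582-83906656. In that annotation the hairpin overlaps the span of Cryba2, a lens crystallin gene, and of an uncharacterized locus, and the nearest protein-coding genes on either side are Fev and Cfap65. Only 1 of the 616 rows carried its seed, so no family member with the same seed was counted beside it. It is also unusual in base content. It holds 4 CG steps, a number that 5 of the 616 mature sequences reach, itself included, while the median is 0.

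All libraries detected miR-375-3p. Its count ran from 5 to 43546, with a median of 820.5, in libraries of 315550 to 10571766 counts, so no library was at the floor of 3 counts. Levels are given as CPM, the count divided by the library's total count and scaled to 1000000. The shallowest value, 5 counts in a female muscle of week 21, was 3.59 CPM with a 95% Wilson interval of 1.53 to 8.39 that covers counting error only. The organ labels were checked against 10 marker lists. The summed nervous list was 48916 to 106375 CPM in brain, the liver list 22059 to 46590 CPM in liver, and the striated muscle list at least 51693 CPM in heart and 59364 CPM in skeletal muscle. No list was specific to the adrenal gland, so its label was not checked in this way. A male thymus of week 104, replicate 1, was the lowest thymus of its age in the epithelial, lymphocyte and germ cell lists, and the comparison of brain with thymus and the tests of the thymus rise are also given without it.

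miR-375-3p was highest in the adrenal gland, followed by lung and liver, and lowest in heart and skeletal muscle. In the adrenal gland its mean was 5478 ± 1438 CPM (SD, n = 32), 412 times the heart mean, and it ranked 24th of 616 miRNAs. Lung held 3085 ± 911 CPM (SD, n = 32) and liver 2505 ± 1891 CPM (SD, n = 32). Those 3 organs were the ones in which no library fell under 400 CPM.

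In the middle of the order the means hide wide spreads. Spleen libraries ran from 10.4 to 10073 CPM, with a mean of 1911 ± 2719 (SD, n = 31) and a median of 588. Testis ran from 16.6 to 3587 CPM, with a mean of 1712 ± 1704 (SD, n = 16). Kidney had 620 ± 310 CPM (SD, n = 32) and uterus 231 ± 121 CPM (SD, n = 16). In spleen the highest library was 967 times the lowest, against 2.32 times in the adrenal gland.

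At the low end, brain had 165 ± 40.8 CPM (SD, n = 31) and thymus 130 ± 180 CPM (SD, n = 32). Skeletal muscle had 16.5 ± 15.8 CPM and heart 13.3 ± 8.16 CPM (SD, n = 32 each). The ranges of muscle and heart, 3.59 to 92.0 and 4.28 to 46.6 CPM, overlapped.

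**Figure D1:**
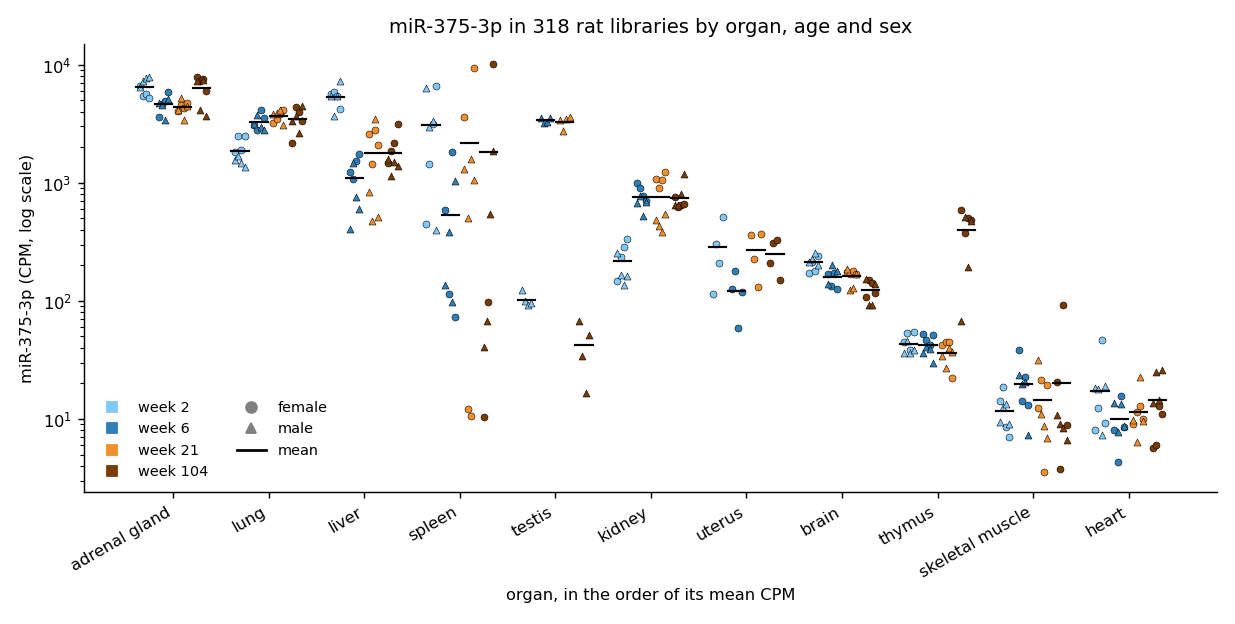
Level of miR-375-3p in each library used (vertical axis, CPM on a log scale), by organ in the order of the means, with age by colour, sex by symbol and a bar for the mean of each age. Adrenal gland and lung form narrow bands, spleen spreads from 10.4 to 10073 CPM, and testis and thymus each split by age.

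Organs were compared with edgeR's quasi-likelihood test with TMM scaling, Benjamini-Hochberg adjusted over all 616 miRNAs in each contrast. With all ages in 1 fit, miR-375-3p differed in 52 of 55 organ pairs. Over all miRNAs 73.7% of such tests were called (54.7% to 87.2% in single pairs), so a call by itself says little, and the sizes carry the comparison. The adrenal gland was higher than each of the 10 other organs, by 1.29 ± 0.22 (log2, SE) over lung (adjusted p = 2.6e-08), 1.67 ± 0.22 over liver (adjusted p = 2.1e-12), 2.56 ± 0.23 over spleen (adjusted p = 3.9e-23) and 9.02 ± 0.31 over heart (adjusted p = 1.5e-85). In that direction 41.6% of the adrenal gland's tests were called over all miRNAs. The fits over organs, at single ages too, share the spread between organs. The SD was 1.42 times the mean in spleen and 0.26 times in the adrenal gland. The errors and adjusted p of pairs with spleen therefore do not carry its wider spread.

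The 3 pairs that did not pass were neighbours in this fit. Lung exceeded liver by 0.38 ± 0.22 (log2, SE; edgeR adjusted p = 0.12), testis exceeded uterus by 0.27 ± 0.31 (adjusted p = 0.47), and brain differed from thymus by -0.05 ± 0.22 (adjusted p = 0.88), or by -0.08 (adjusted p = 0.71) without 5 libraries that stood apart. Lung over liver passed with library sizes alone (0.52, adjusted p = 0.032), with all 320 libraries (0.51, adjusted p = 0.036), without replicate 3 (0.59, adjusted p = 0.022) and without those 5 libraries (0.43, adjusted p = 0.046), and testis over uterus with library sizes alone (1.10, adjusted p = 0.0009). Kidney and spleen, which passed with -0.51 ± 0.22 (kidney minus spleen, adjusted p = 0.032), changed order without replicate 3 of every group (0.027, adjusted p = 1) and without the same 5 libraries, chosen after the data were seen, namely the 3 spleens and the liver highest in pancreatic miRNAs and the thymus that stood apart (0.26, adjusted p = 0.26). That call was lost in 8 of 12 alternatives, these included. Brain and thymus depended on the scaling. Brain was higher by 1.17 (adjusted p = 8.3e-07) when only library sizes were used, and by 0.72 (adjusted p = 0.0013) in DESeq2. Heart lay under skeletal muscle by -1.05 ± 0.24 (adjusted p = 3.6e-05), a call that was lost with library sizes alone (-0.32, adjusted p = 0.23) and without replicate 1 (-0.38, adjusted p = 0.24) or 2 (-0.50, adjusted p = 0.096). Library sizes alone also ended the calls of brain with uterus, kidney with testis and liver with spleen.

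At single ages the adrenal gland was higher than another organ in 37 of 40 comparisons, against 37.1% of such tests over all miRNAs, and at least 4-fold higher in 32 of 40, against 23.1%. The 3 that did not pass were liver at week 2 (log2 difference 0.48 ± 0.30 SE, edgeR adjusted p = 0.16), lung at week 6 (0.66 ± 0.32, adjusted p = 0.058) and lung at week 21 (0.76 ± 0.48, adjusted p = 0.16). Testis came close at 6 and 21 weeks, with the adrenal gland higher by 1.26 ± 0.42 (adjusted p = 0.0055) and 1.43 ± 0.63 (adjusted p = 0.037), and with library sizes alone both calls were lost (adjusted p = 0.35 and 0.56). The call at week 21 was lost in 9 of 12 alternatives, and that at week 6 also with all 320 libraries (1.05, adjusted p = 0.0505). Calls were also lost over lung at week 104 with library sizes alone (0.87, adjusted p = 0.17) and over liver at week 21 without replicate 1 (1.35, adjusted p = 0.059). In DESeq2, by contrast, the adrenal gland passed over lung at weeks 6 and 21 (1.04 with adjusted p = 0.0026, and 1.12 with adjusted p = 0.031). At week 6 it also passed with a minimum mean count of 10 (0.92, edgeR adjusted p = 0.0080). Without replicate 3 it passed at both weeks (0.85 with edgeR adjusted p = 0.035, and 1.17 with adjusted p = 0.036). Of all 220 organ pairs at single ages, 186 passed, against 62.0% over all miRNAs.

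The adrenal gland makes steroid hormones in its cortex and catecholamines in its medulla, whose chromaffin cells are neuroendocrine. Its week 2 libraries ran from 5201 to 7947 CPM with a median of 6550, and its week 104 libraries from 3707 to 7824 with a median of 7327. Between them, weeks 6 and 21 lay at 3420 to 5900 and 3431 to 5272 CPM, with medians of 4666 and 4369. The youngest and oldest glands were thus higher on this scale, with overlap between each pair of neighbouring ages.

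None of the 3 age steps of the adrenal gland passed. The fitted changes were -0.36 ± 0.15 (log2, SE) from week 2 to 6 (edgeR adjusted p = 0.069), 0.32 ± 0.15 from week 6 to 21 (adjusted p = 0.14) and 0.38 ± 0.15 from week 21 to 104 (adjusted p = 0.091). With library sizes alone the first step (-0.49, adjusted p = 0.0099) and the last (0.54, adjusted p = 0.015) passed, and the middle one turned to -0.08 (adjusted p = 0.78). The first also passed in DESeq2 (-0.37, adjusted p = 0.027) and without replicate 4 (-0.52, edgeR adjusted p = 0.047), and the last with a minimum mean count of 10 (0.39, edgeR adjusted p = 0.027) and without replicate 1 (0.53, adjusted p = 0.021). The sexes differed by 0.14 ± 0.11 (males minus females, adjusted p = 0.62). miR-7, another miRNA of neuroendocrine and islet cells, summed over its 4 listed forms to 230 to 671 CPM in the adrenal gland and 287 to 3239 CPM in brain. None of its 4 forms was called from week 2 to 6, where 32.3% of all miRNAs were called, and 1 rose at each later step, where 19.6% and 15.9% were called. The pancreatic list, miR-216a, miR-216b and miR-217 with both arms, stayed at or under 5.95 CPM in every adrenal library.

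In lung, which holds scattered neuroendocrine cells within its airway epithelium, week 2 was the low age. The 8 libraries of week 2 held 1355 to 2507 CPM (median 1745), and those of week 6 held 2773 to 4102 CPM (median 3138), with no overlap. The rise was 1.03 ± 0.15 (log2, SE; edgeR adjusted p = 2.1e-06), where 35.6% of miRNAs were called. Later steps, 0.35 ± 0.15 (adjusted p = 0.093) and -0.20 ± 0.15 (adjusted p = 0.45), did not pass. With a minimum mean count of 10 the step from week 6 to 21 passed (0.37, edgeR adjusted p = 0.048). With that minimum the rise from week 2 to 6 also differed from the adrenal step (adrenal minus lung -1.45, adjusted p = 0.049), a call not made without it. The pancreatic list summed to at most 10.2 CPM in lung. Of the 11 epithelial miRNAs, among them the miR-200 family that marks epithelial cells, 4 rose from week 2 to 6 and none fell. That share is near the 35.6% called over all miRNAs. Their median was 0.43 against 0.00 over all miRNAs.

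Liver went the other way. Week 2 livers held 3647 to 7259 CPM (median 5434) and week 6 livers 407 to 1759 CPM (median 1149), and the ranges did not overlap. The fall was -2.25 ± 0.28 (log2, SE; edgeR adjusted p = 1.9e-08), against 35.2% of miRNAs called in that step. The liver markers miR-122 and miR-802 did not fall with it: of the 3 listed forms 2 rose and none fell. In the fit of all organs together, the liver step differed from the adrenal step by 1.89 ± 0.61 (adrenal minus liver, adjusted p = 0.011), where 27.3% of miRNAs were called, and this was lost without replicate 1 (1.34, adjusted p = 0.18), 2 (1.71, adjusted p = 0.073) or 4 (1.74, adjusted p = 0.066).

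After week 6 the liver values rose and spread. At week 21 they ran from 477 to 3456 CPM (median 1781) and at week 104 from 1142 to 3126 CPM (median 1554). The step from week 6 to 21 passed with 1.01 ± 0.27 (edgeR adjusted p = 0.014; 9.42% of miRNAs called), but not with library sizes alone (0.69, adjusted p = 0.13), without replicate 1 (0.92, adjusted p = 0.090), without replicate 3 (0.51, adjusted p = 0.30) or without the 5 libraries (0.56, adjusted p = 0.10). Male replicate 3 of week 21 was the highest of its age at 3456 CPM, while the other 3 males held 477 to 834 CPM, and its pancreatic list was the highest among livers at 738 CPM.

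The pancreatic list moved with miR-375-3p inside some ages of liver. Pearson's r between the log2 values was 0.96 at week 6 (exact permutation p = 9.9e-05, adjusted p = 0.00099, n = 8; Spearman's rho 0.98, exact permutation p = 0.0004, adjusted p = 0.0015), and 0.96 without the 2 livers farthest from the median of the list. At week 21 r was 0.86 (exact permutation p = 0.013, adjusted p = 0.024, n = 8; rho 0.88, exact permutation p = 0.0072, adjusted p = 0.016), and 0.95 without the 2 farthest. At week 2, when miR-375-3p was highest, r was 0.41 (exact permutation p = 0.32, adjusted p = 0.44, n = 8; rho 0.29, exact permutation p = 0.50, adjusted p = 0.63), and the list summed to 0.59 to 161 CPM. The week 2 male with 0.59 CPM of the list held 3647 CPM of miR-375-3p, the lowest of the 8 week 2 livers. The part of pancreatic tissue in the liver levels was not tested. At week 104 r was 0.61 (exact permutation p = 0.22, adjusted p = 0.31, n = 8; rho -0.01, exact permutation p = 0.99, adjusted p = 0.99), and it turned to -0.45 without the 2 farthest. The tests were 2-sided, and the adjustment covered 30 relations, r and rho in spleen, liver and brain over all ages and within each. The permutations took the sexes together. Mean miR-375-3p in liver was 1398 CPM in females and 808 CPM in males at week 6, and 2227 and 1320 CPM at week 21. The part of sex in these relations was not tested.

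Spleen, an organ of blood filtering and lymphocytes that lies against the tail of the pancreas in the rat, had the widest range. In week 21 females the values of replicates 1 to 4 were 3589, 12.2, 10.7 and 9455 CPM. In week 104 females replicates 1 to 3 held 10.4, 97.1 and 10073 CPM. Libraries of 1 group thus lay at both ends of the scale.

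These values moved with the pancreatic list. Pearson's r of the log2 values over 31 spleens was 0.95 (permutation p = 2e-05, the smallest that 100000 permutations can give, adjusted p = 0.0003) and Spearman's rho 0.95 (permutation p = 2e-05, adjusted p = 0.0003). Without the 2 spleens farthest from the median of the list r was 0.93. Within ages r was 0.84 at week 2, 0.97 at week 6, 0.99 at week 21 and 0.96 at week 104 (exact permutation p = 0.0051, 0.0004, 0.0002 and 0.0056, with n = 8, 8, 8 and 7 and adjusted p = 0.013, 0.0015, 0.0015 and 0.013), and rho ran from 0.86 to 0.98 (exact permutation p from 0.0004 to 0.024, adjusted p from 0.0015 to 0.040). The 2 measures share each library's total.

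Sorted by the list, the 6 spleens with under 5 CPM of it held 10.4 to 97.1 CPM of miR-375-3p (median 26.5), which overlaps heart at its lower end. The 7 spleens between 14.2 and 85.7 CPM of the list held 73.3 to 444 CPM (median 137), and the 18 with at least 109 CPM held 501 to 10073 CPM (median 1854). The spread of spleen therefore followed the level of miRNAs that mark another organ, and their part in it was not tested. Per CPM of the list, spleens with at least 20 CPM of it held a median of 13.3 CPM of miR-375-3p at week 2 (range 5.18 to 24.9, n = 8), 6.09 at week 6 (2.93 to 8.28, n = 6), 4.04 at week 21 (2.86 to 4.73, n = 6) and 4.61 at week 104 (3.55 to 6.22, n = 3). The 6 spleens of week 21 all lay under the lowest of week 2. Per the study, RNA integrity was lower in the week 2 spleens than in most other samples, so age and RNA quality cannot be told apart in this ratio or in the step from week 2 to 6.

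The spleen with the most miR-375-3p, female replicate 3 of week 104 at 10073 CPM, was set against the 2 other spleens of its group. Among its 297 miRNAs of at least 10 CPM, ranked by the log2 ratio of CPM + 1 to the median of those 2, miR-217-5p came first (1522 against 1.08 CPM), followed by miR-216a-5p (886 against 0.60) and miR-216b-5p (218 against 0.00). miR-375-3p ranked 4 with a log2 ratio of 7.52. All 6 forms of the pancreatic list stood among the 10 highest, with miR-802-5p, miR-200b-3p and miR-200a-3p as the others. The adrenal library with the most miR-375-3p, male replicate 4 of week 2 at 7947 CPM, looked different: there miR-375-3p ranked 256th of 329, at a log2 ratio of 0.14 to the median of its group, and no pancreatic form was among the first 10, which were led by miR-6215 (87.1 against 14.1 CPM), miR-122-3p (10.2 against 1.03 CPM) and miR-122-5p (284 against 84.5 CPM).

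**Figure D2:**
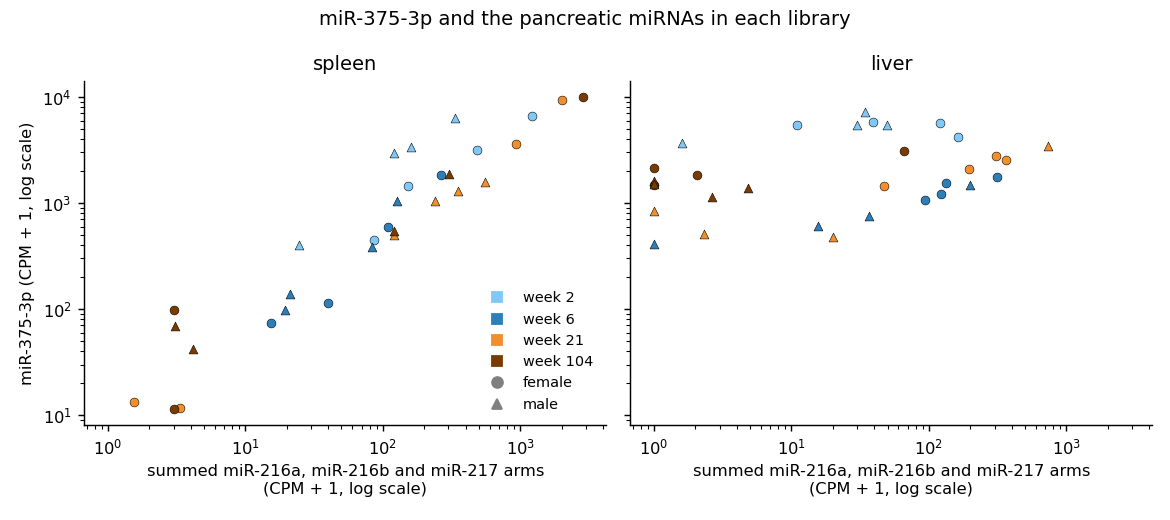
Each point is a library of spleen (31, left) or liver (32, right), with the summed CPM + 1 of miR-216a, miR-216b and miR-217 on the horizontal log axis and miR-375-3p CPM + 1 on the vertical log axis, with age by colour and sex by symbol. Spleens rise along 1 line from under 5 CPM of the list to 2840 CPM, while week 2 livers lie at 3647 to 7259 CPM.

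None of the 3 age steps of spleen passed, and the errors were far wider than those of the adrenal gland. The changes were -2.11 ± 1.08 (log2, SE; edgeR adjusted p = 0.14) from week 2 to 6, 1.74 ± 1.07 (adjusted p = 0.35) from week 6 to 21 and -0.52 ± 1.09 (adjusted p = 0.97) from week 21 to 104. In the fit of all organs, in which the spread is shared between organs, the first step did differ from the adrenal step (2.04 ± 0.61, adjusted p = 0.0070; 27.6% of miRNAs called). That difference was lost without replicate 1 of every group (1.44, adjusted p = 0.18) or replicate 2 (1.55, adjusted p = 0.13).

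Testis switched between high and low levels. In the 4 testes of week 2 miR-375-3p was 123, 99.4, 91.6 and 96.1 CPM. At week 6 it was 3530, 3233, 3262 and 3568 CPM, and at week 21 it was 3406, 2754, 3469 and 3587 CPM. At week 104 it was 67.9, 34.3, 16.6 and 51.7 CPM. The 8 testes of weeks 6 and 21 thus held more than the other 8 by an order of magnitude, and the oldest all lay under the youngest. Per the study, reads of testes at weeks 6 and 21 were mostly piRNA, another class of small RNA. CPM here are shares of counted miRNAs only, so these changes are relative to other miRNAs and not per sequenced read. Levels per sequenced read were not computed.

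From week 2 to 6 the rise was 5.07 ± 0.29 (log2, SE; edgeR adjusted p = 9.5e-10; 45.3% of miRNAs called), the 9th highest of 616. From week 21 to 104 the fall was -5.08 ± 0.29 (adjusted p = 9.5e-10; 50.6% called), the 15th lowest. Week 21 differed from week 6 by 0.23 ± 0.25 (adjusted p = 0.72). With library sizes alone the last step was -6.28, but there the median over all miRNAs also moved, by -1.13 relative to the TMM fit. Both steps also differed from those of the adrenal gland, by -5.37 ± 0.81 (adrenal minus testis, week 6 minus week 2, adjusted p = 6.3e-09; 36% called) and 5.48 ± 0.82 (week 104 minus week 21, adjusted p = 1.3e-09; 38.8% called).

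The germ cell markers moved at the same steps. The miR-34 and miR-449 forms, which are made in meiotic and later germ cells and in ciliated epithelia, summed to 661 to 796 CPM at week 2, 145817 to 177049 at week 6, 149253 to 169950 at week 21 and 44.4 to 2147 at week 104. All 3 rose at the first step (median 8.18 against -0.25 over all miRNAs) and all 3 fell at the last (median -6.99 against 0.00). Their part in the result was not tested. Of the 4 miR-7 forms 3 rose at the first step, miR-7a-5p by 2.10 ± 0.36 (log2, SE; edgeR adjusted p = 0.00016), and 3 fell at the last, miR-7a-5p by -3.46 ± 0.38 (adjusted p = 6.1e-07). The remaining form, miR-7a-1-3p, changed by 0.26 ± 0.25 (adjusted p = 0.44) and -0.03 ± 0.26 (adjusted p = 0.96). Of the epithelial list 0 of 11 rose and 5 fell at the first step, a share of calls near the 45.3% over all miRNAs. Its median was -0.88 against -0.25 over all miRNAs. The pancreatic list summed to 0.00 to 9.26 CPM in testis.

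Kidney rose early and then split by sex at 1 age. Its 8 libraries of week 2 held 137 to 334 CPM (median 202), and the 8 of week 6 held 527 to 987 CPM (median 736). The step of 1.75 ± 0.14 (log2, SE; edgeR adjusted p = 2.0e-12; 40.9% of miRNAs called) was the 15th highest of 616, and it differed from the adrenal step by -2.04 ± 0.61 (adrenal minus kidney, adjusted p = 0.011; 17.5% called). The miRNAs of gut and kidney epithelium, miR-192 and miR-194 forms among them, rose in the same step in 3 of 3 cases with a median of 0.90 against -0.09 over all miRNAs. The next 2 steps, averaged over the sexes, were 0.25 ± 0.14 (adjusted p = 0.34) and 0.03 ± 0.14 (adjusted p = 1).

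At week 21 female kidneys held 1077, 910, 1057 and 1237 CPM and male kidneys 480, 433, 382 and 539 CPM. The lowest female lay well above the highest male. The difference was -1.32 ± 0.20 (males minus females, log2, SE; edgeR adjusted p = 4.1e-05), 2.50-fold, where 1.95% of miRNAs were called, and it passed under all 12 alternatives, from -1.43 to -1.16. It was -0.28 ± 0.20 at week 2 (adjusted p = 0.58), -0.09 ± 0.20 at week 6 (adjusted p = 1) and 0.11 ± 0.20 at week 104 (adjusted p = 0.94). Among the listed miRNAs of gut and kidney epithelium 0 of 3 differed between the sexes at week 21, and 0 of 11 of the epithelial list. With 1.95% of all miRNAs called, lists this short would rarely hold a call, so these counts decide nothing.

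The change of the sex difference was tested itself. From week 6 to 21 it shifted by -1.23 ± 0.28 (log2, SE; edgeR adjusted p = 0.031) and from week 21 to 104 by 1.43 ± 0.28 (adjusted p = 0.0076), where 0.487% of miRNAs were called in each. The first was lost under library sizes alone (-0.88, adjusted p = 0.29), the lane covariate (-1.02, adjusted p = 0.13) and without replicate 2, 3 or 4 (adjusted p from 0.11 to 0.71), and the second without replicate 3 or 4 (adjusted p = 0.14 and 0.078). These were the 2 called among 27 interactions of sex and age in 9 organs, against 0.427% over all miRNAs. Averaged over ages kidney was also the 1 organ of 9 whose sexes differed (-0.40 ± 0.10, adjusted p = 0.024; 1.95% called, 1.39% over the 9 organs), a call lost with the lane covariate (-0.33, adjusted p = 0.34) and without replicate 2, 3 or 4 (adjusted p from 0.086 to 0.27). Of 36 groups of organ and age 1 was called, against 1.32% over all miRNAs, and that was kidney at week 21.

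In liver males had lower fitted values than females averaged over ages, at -0.51 ± 0.19 (log2, SE; edgeR adjusted p = 0.24). This passed with the lane covariate (-0.56, adjusted p = 0.0078) and without the 5 libraries, of which the male liver replicate 3 of week 21 was 1 (-0.73, adjusted p = 0.0021). At week 21 alone the sexes of liver differed by -0.64 ± 0.38 (adjusted p = 0.67), by -1.54 (adjusted p = 0.0033) without the 5 libraries and by -1.39 (adjusted p = 0.029) without replicate 3. The order of the sexes was the same in thymus, at -0.43 ± 0.15 (adjusted p = 0.14).

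**Figure D3:**
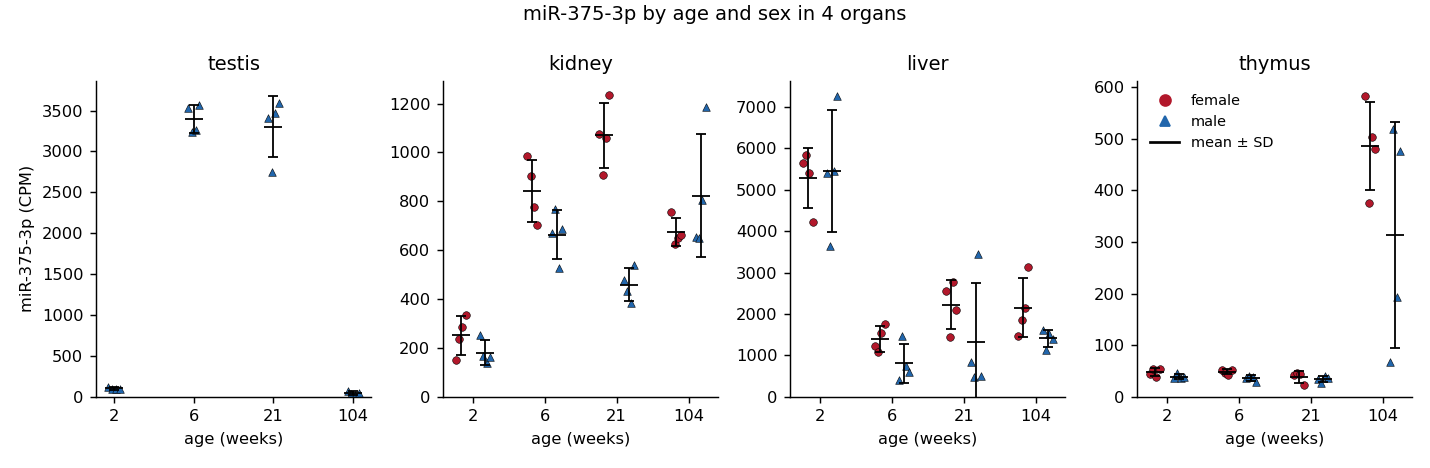
miR-375-3p (vertical axis, CPM from 0) by age in weeks in testis, kidney, liver and thymus, with a point for each library, females and males apart, and bars for the mean ± SD of 4 libraries (bars that would go below 0 are cut there). Testis is high at weeks 6 and 21 alone, the sexes of kidney separate at week 21, liver is highest at week 2 and thymus at week 104.

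Thymus, where T cells mature and which shrinks with age, was low until week 21 and higher at week 104. The ranges were 36.04 to 54.2 CPM at week 2 (median 41.5), 29.6 to 52.2 at week 6 (median 41.4) and 22.3 to 45.2 at week 21 (median 38.3). At week 104 females held 584, 376, 504 and 480 CPM and males 67.5, 518, 194 and 476 CPM. Even the lowest of them, the male thymus that stood apart, lay above all 24 younger ones.

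The rise was 2.97 ± 0.23 (log2, SE; edgeR adjusted p = 7.8e-13; 41.2% of miRNAs called), the 6th highest of 616, and it was 2.75 to 3.42 over the 12 alternatives, and 3.13 without the 5 libraries, 1 of which is the thymus that stood apart. It differed from the adrenal step by -2.47 ± 0.62 (adrenal minus thymus, adjusted p = 0.00061; 29.1% called), and by -2.64 (adjusted p = 2.0e-05) without the 5 libraries. The 2 earlier steps were -0.04 ± 0.22 (adjusted p = 1) and -0.13 ± 0.22 (adjusted p = 0.83). Several marker lists moved at week 104. Of the 11 epithelial miRNAs 6 rose and none fell, among them miR-203a-3p by 1.14 ± 0.17 (adjusted p = 8.8e-07) and miR-203b-3p by 1.83 ± 0.28 (adjusted p = 1.7e-06), with a median of 0.72 against 0.10 over all miRNAs. Of the 4 red blood cell miRNAs 4 rose, with a median of 2.98, and of the 4 lymphocyte miRNAs 3 fell, with a median of -1.03. The summed epithelial list was 4830 to 30563 CPM at week 104 against 9020 to 11854 CPM at week 21, and its 2 lowest values were those of males 1 and 4, of which male 4 held 476 CPM of miR-375-3p. The red blood cell list was highest in male 3, at 93919 CPM, which held 194 CPM of miR-375-3p. The part of these cells in the rise was not tested. miR-7 did not rise with it: 0 of 4 rose and 2 fell. The pancreatic miR-217-5p averaged 0.684 CPM at week 21 and 2.71 CPM at week 104, and miR-216a-5p 0.609 and 2.45 CPM. The other pancreatic forms averaged at most 0.371 CPM at either age. The part of pancreatic tissue in the rise was not tested.

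Brain held 91.5 to 256 CPM, with means of 212 ± 28.2, 160 ± 27.02, 163 ± 23.6 and 124 ± 25.04 CPM at 2, 6, 21 and 104 weeks (SD, n = 8, 7, 8 and 8). Its 3 age steps did not pass (edgeR adjusted p from 0.13 to 0.60), and with library sizes alone the first fell to -0.40 (adjusted p = 0.012). The brain list of pancreatic miRNAs was 4.58 to 189 CPM and highest at week 2, and r with miR-375-3p over 31 brains was 0.57 (permutation p = 0.00054, adjusted p = 0.0018; rho 0.50, permutation p = 0.0046, adjusted p = 0.013; r without the 2 farthest 0.52), but within each of the 4 ages it was negative, from -0.82 at week 6 (exact permutation p = 0.022, adjusted p = 0.039, n = 7; -0.48 without the 2 farthest) to -0.20 at week 2. The pooled relation in brain thus did not hold within ages.

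Uterus held 58.5 to 510 CPM. Its values were 115, 303, 211 and 510 CPM at week 2, 127, 178, 58.5 and 119 at week 6, 358, 228, 131 and 366 at week 21 and 209, 307, 326 and 151 at week 104. The groups overlapped at every step, and none passed, with 1.11 ± 0.37 (log2, SE; edgeR adjusted p = 0.063) from week 6 to 21 as the nearest. That step passed in DESeq2 (1.12, adjusted p = 0.039), and the one from week 2 to 6 with library sizes alone (-1.24, edgeR adjusted p = 0.018). In skeletal muscle the step from week 2 to 6 passed with 1.07 ± 0.43 (adjusted p = 0.040; 45.3% of miRNAs called) at levels of 7.01 to 18.7 and 7.33 to 38.3 CPM, which rest on 12 to 68 counts a library, and it was lost in 7 of 12 alternatives. No step of heart passed (adjusted p from 0.52 to 1).

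In all, 8 of the 33 age steps within an organ passed, against 22.8% over all miRNAs, 6 up (10.1% over all miRNAs) and 2 down (12.7%). The rises were those of lung, kidney, testis and skeletal muscle from week 2 to 6, of liver from week 6 to 21 and of thymus from week 21 to 104. The falls were those of liver from week 2 to 6 and of testis from week 21 to 104. Compared with the adrenal gland itself, 6 of 30 steps of other organs differed, against 16.8% over all miRNAs. The 30 share the adrenal libraries.

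**Figure D4:**
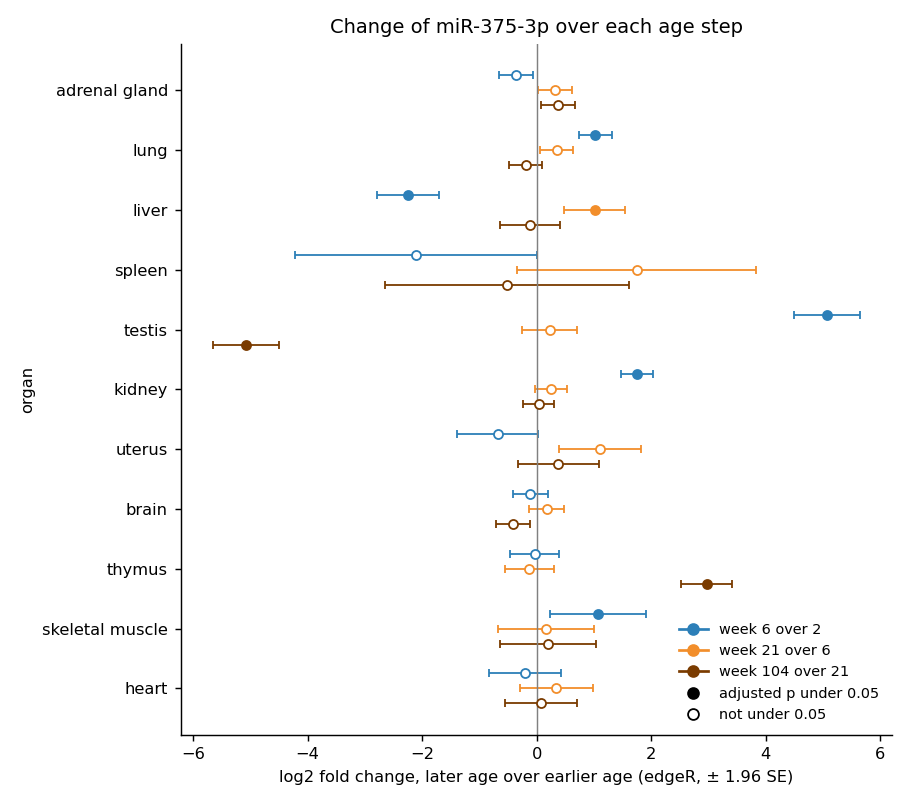
Fitted log2 change of miR-375-3p over each of the 3 age steps in each organ (horizontal axis, edgeR), with filled points for an adjusted p under 0.05. Bars are an approximate 95% interval, a normal multiple of the SE. The 8 filled points include the 2 opposite changes of testis near 5.07 and -5.08, and the widest bars are those of spleen.

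Over the 44 means of organ and age, no miRNA followed miR-375-3p closely. Of the 525 others that reached a mean of 10 CPM in at least 1 of the 44, the 5 with the highest Pearson's r on log2(CPM + 1) were miR-203a-3p (r = 0.66), miR-672-5p (0.57), miR-10a-3p (0.55), miR-450a-3p (0.47) and miR-10a-5p (0.46). miR-203a-3p, known from epidermis and other stratified epithelia, averaged 734 CPM in liver, 541 in lung, 263 in the adrenal gland, 71.1 in heart and 48.3 in brain. The 2 miR-10a arms come from a Hox gene cluster that is silent in forebrain, and miR-10a-5p averaged 187894 CPM in the adrenal gland and 2685 in brain. Over the 32 adrenal libraries alone, the 5 most alike of 312 were miR-666-5p (r = 0.76), miR-298-5p (0.76), miR-6331 (0.69), miR-325-3p (0.67) and miR-369-5p (0.65), at means of 16.9, 223, 31.3, 17.2 and 122 CPM. These are descriptions over points that share libraries and totals.

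Within testis the listed miRNAs nearest to it were 2 germ cell markers. Over 16 libraries Pearson's r on log2(CPM + 1) was 0.97 with miR-34b-5p and 0.97 with miR-34c-5p, followed by the red blood cell marker miR-486 (0.96), the nervous marker miR-124-3p (0.95) and miR-449a-5p (0.95). The libraries form separate clusters of high and low levels, so these values mainly describe that split. In spleen the listed miRNA nearest to it was miR-217-5p (r = 0.95, 31 libraries). Outside the pancreatic list, miR-802-5p of the liver list (0.91) and the epithelial miR-200a-3p (0.88), miR-141-3p (0.86), miR-200b-3p (0.85) and miR-200c-3p (0.85) followed it too. The rest of these lists did so less. The other liver forms had r of 0.44 (miR-122-5p) and 0.33 (miR-122-3p). The other epithelial miRNAs ran from 0.76 (miR-182) to 0.03 (miR-203a-3p). The part of the miRNAs of these 2 lists in the spread of spleen was not tested.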

How the data were processed

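The authors deposited 1 table of read counts per mature miRNA for 616 rows and 320 libraries, without normalization. Per the submitters' processing notes, reads were processed with fastp 0.23.2 and Bowtie 1.3.1 (genome build rn7). Per the study, reads were aligned to miRBase. The members, marker lists and tests were chosen with earlier results of these data known. Named miRNAs were miR-375-3p, list members, the 5 most alike over the 44 means and over adrenal libraries, and the 10 that stood out most in the adrenal and the spleen library highest in miR-375-3p. Libraries named as extremes were chosen after their values were seen.

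CPM were computed from column totals. Counts were tested with edgeR 4.0.16 (quasi-likelihood, TMM, R 4.3.3), in 1 fit over organs, 1 per age, and 1 per organ for sex and age, with Benjamini-Hochberg adjustment over all miRNAs per contrast and a threshold of 0.05. Each SE of an edgeR log2 change was derived from the test, as the absolute change divided by the square root of its F statistic. The fits were tested on simulated data. Alternatives were library sizes alone, DESeq2 1.42.0, a minimum mean count of 10, the full set of 320 samples, the sequencing lane as a covariate, a replicate block, a robust fit and leaving out each replicate number. Each of the 8 lanes held at least 10 organs and 4 ages. Correlations used log2(CPM + 1) in SciPy 1.17.1. Figures were drawn with matplotlib 3.10.9. No 2 columns were identical, and the chi-square of replicate pairs, divided by its degrees of freedom, was never under 14.9. Replicates were separate rats, while the organs came from the same rats.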

Additional observations from a re-analysis of the deposited data

Results flagged for a closer look

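Of 78 groups of 4 libraries, 5 held a library whose gap to the nearest of the others was large for the range of its group, where chance gives about 1 in 20 groups. They were a female heart of week 2, replicate 3, at 46.6 CPM (others 7.99 to 12.4), a male heart of week 2, replicate 3, at 7.30 CPM (others 17.9 to 19.0), a male liver of week 21, replicate 3, at 3456 CPM (others 477 to 834), a male skeletal muscle of week 21, replicate 1, at 31.5 CPM (others 6.96 to 11.0) and a female thymus of week 21, replicate 4, at 22.3 CPM (others 42.3 to 45.2). Groups with 3 libraries were not examined.

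The age steps of 5 organs differed from the adrenal step by a test of the difference (edgeR, adrenal minus other organ, log2): kidney by -2.04 (adjusted p = 0.011), liver by 1.89 (adjusted p = 0.011), spleen by 2.04 (adjusted p = 0.0070) and testis by -5.37 (adjusted p = 6.3e-09) from week 2 to 6, and thymus by -2.47 (adjusted p = 0.00061) and testis by 5.48 (adjusted p = 1.3e-09) from week 21 to 104. These were 6 of 30 such tests, against 16.8% over all miRNAs. The call of liver was lost without replicate 1, 2 or 4, and that of spleen without replicate 1 or 2. Per the study, RNA integrity was low in the week 2 spleens. In kidney the sex difference changed by -1.23 (edgeR adjusted p = 0.031) from week 6 to 21 and by 1.43 (edgeR adjusted p = 0.0076) from week 21 to 104. The first change was lost under library sizes alone, the lane covariate and without replicate 2, 3 or 4. The second was lost without replicate 3 or 4.

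The male brain library of week 6 that was left out held 861 CPM of miR-375-3p (5660 counts), 4.98 times the mean of its group and above the 31 other brains (91.5 to 256 CPM). Its nervous list was 35249 CPM, under the lowest other brain at 48916 CPM, and its pancreatic list was 19.3 CPM.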

How the results depend on the processing

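Each count of calls was recomputed under 12 alternatives. The number of organ pairs that differ (52 of 55 and 186 of 220), of comparisons with the adrenal gland at least 4-fold higher (32 of 40), of age steps (8 of 33) and of differences from the adrenal step (6 of 30) stayed within 1.5 times the reported value under each of them. Of the 5 most alike miRNAs, 4 were shared under each of the 3 alternatives run for them, log2(CPM + 10), Spearman's rho and single samples. Leaving out 1 replicate number at a time gave 50 to 52, 179 to 188, 31 to 32, 6 to 8 and 4 to 7 calls. Organs whose sexes differ came to 0 to 1 and sex by age interactions to 0 to 2, with 1 to 2 groups of organ and age. Organs whose sexes differ were 2 without 5 libraries that stand apart, and groups of organ and age 2 there (with liver at week 21) and with all 320 samples (with brain at week 6, which then holds the library left out). Interactions were 1 with library sizes alone and 1 with the lane covariate. The 5 libraries, chosen after the data were seen, were the 3 spleens (females, replicate 4 of weeks 2 and 21 and replicate 3 of week 104) and the liver highest in the pancreatic list, and the thymus that stood apart.

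Reversed values were kidney minus spleen, at 0.26 without the 5 libraries and, leaving out 1 replicate number at a time, from -0.59 to 0.027 without replicate 3 (-0.51 as reported), and brain minus thymus, at 1.17 with library sizes alone and 0.72 (adjusted p = 0.0013) with DESeq2. The cause was not tested. Of 80 single values, these 2 included, 48 stayed on their side of the threshold in the alternatives run. Between TMM and library sizes the median of all miRNAs moved by over 0.1 (log2) in 22 of 33 age steps, by -1.13 to 0.34, and in 50 of 55 organ pairs, by -1.16 to 1.74. TMM-scaled library sizes changed mean CPM to 78.4 in brain and 393 in uterus. With the replicate number as a block kidney minus spleen was -0.12 (adjusted p = 0.68), and there were 51 of 55 organ pairs, 8 age steps and 2 interactions, and it changed no count by over 1.5 times. Libraries with the same number deviated together little at most (mean r = 0.0083 over 1422 pairs of organs of 1 sex and age, against -0.0027 for other numbers). Of them 28.1% correlated best with their own number, where chance gives about 1 in 4. This does not show that organs of 1 rat are independent.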
